A study of Mus musculus with 7 samples.

Results

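Pip5k1c, Marcks, Basp1 and Gm15265 were 4 of 48440 genes in a count table of islet RNA, and all 4 were among the 4218 genes that passed the filter on low counts. They were picked for their place in phosphoinositide metabolism and for their difference between the treatment groups. Pip5k1c, Marcks and Basp1 were among the rows with higher counts after VLX-1005, and Gm15265 was the single row with an edgeR adjusted p below 0.05 and lower counts under the settings used throughout. They were thus selected on the measured difference between VLX-1005 and vehicle, which is given for them as a description without a test. Islets came from NOD.hALOX12 mice, a nonobese diabetic line in which human ALOX12 stands in place of the mouse Alox15 coding region in every cell, and by the study's account they were prediabetic females. VLX-1005, which blocks the enzyme encoded by human ALOX12, was given at 30 mg/kg for 4 weeks (3 libraries), and vehicle for the same time (4 libraries), and both groups carried the replaced gene. Nothing in the labels ties a library to an animal of its own, so each p-value reflects only how much these libraries vary, part of which may be technical. In bulk islets, fewer cells of a type and less RNA per cell cannot be told apart.

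Phosphoinositides are membrane lipids whose inositol ring is phosphorylated in steps. PI 4-kinases such as PI4KB at the Golgi make PI4P, and type I PIP kinases such as the product of Pip5k1c turn PI4P into PIP2 at the plasma membrane. In beta cells PIP2 is needed to prime insulin granules and holds ATP-sensitive potassium channels open, and its cleavage by phospholipase C gives the messengers that release calcium and activate protein kinase C. MARCKS and BASP1 are myristoylated proteins that hold PIP2 at the membrane through clusters of basic residues, and protein kinase C and calmodulin release them.

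The counts need a caution about strand. Rows with exons that lie opposite another gene's exons held 95.7% to 96.3% of the counts of a library, and total counts ran from 1024586 to 1430785. Ins2, the insulin gene, had 448 counts over the VLX-1005 libraries and 757 over the vehicle libraries, and Actb, a cytoskeletal actin gene, had 24 and 18. The libraries were strand-specific and the strand setting of the counting is not given in the sources used here, so each row is described as counted. Whether the reads were counted on the strand opposite to their transcripts was not settled here. If they were, the Gm15265 row would hold Pi4kb reads, and the rows of Pip5k1c, Marcks, Basp1, Ins2 and Actb would hold antisense reads. Alox15 had 1 count in all, in VLX-1005 replicate 1. A row with 0 counts could still have had up to 3 counts, or 2.10 to 2.93 CPM (counts scaled to a common library total), and these limits cover counting error only.

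Gm15265 is shown as sequence first, because the overlap with Pi4kb defines it. It is an antisense gene of 974 exonic bases on the minus strand of mm10 chromosome 3 (chr3:94998800-95004869), and 407 of those bases lie opposite exons of Pi4kb on the plus strand. The shared bases include a whole coding exon of Pi4kb, 121 bases at chr3:95004634-95004754, in the part of the gene that encodes the C-terminal catalytic domain of the kinase. The GENCODE transcripts give that stretch on the minus strand for Gm15265 and on the plus strand for Pi4kb, each 5′ to 3′ in lower case:
Gm15265: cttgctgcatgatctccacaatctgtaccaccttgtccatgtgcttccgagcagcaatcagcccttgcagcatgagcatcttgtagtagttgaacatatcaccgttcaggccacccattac
Pi4kb: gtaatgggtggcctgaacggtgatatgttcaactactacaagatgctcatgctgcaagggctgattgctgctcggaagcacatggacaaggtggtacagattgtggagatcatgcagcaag
Each is the exact reverse complement of the other. For a read that lies wholly within these bases, only its strand assigns it to one gene or the other.

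Pip5k1c, Marcks and Basp1 are protein-coding genes with no annotated exon on the other strand. Pip5k1c lies at chr10:81292963-81319973 on the plus strand, Marcks at chr10:37133375-37138920 on the minus strand and Basp1 at chr15:25363277-25413764 on the minus strand. Of the 4 genes, RefSeq start regions (GRCm38.p6) were on hand only for Pip5k1c and Basp1 and are shown as a description. They run from 250 bases before to 50 bases after the start, 5′ to 3′, with each GC box (GGGCGG or its reverse complement) in capitals:
Pip5k1c: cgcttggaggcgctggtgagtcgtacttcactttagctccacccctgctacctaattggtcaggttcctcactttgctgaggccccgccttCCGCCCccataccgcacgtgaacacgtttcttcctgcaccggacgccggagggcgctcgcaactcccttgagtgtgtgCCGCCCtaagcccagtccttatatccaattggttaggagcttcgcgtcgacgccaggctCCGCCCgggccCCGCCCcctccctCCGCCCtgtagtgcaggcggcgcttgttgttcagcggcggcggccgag
Basp1: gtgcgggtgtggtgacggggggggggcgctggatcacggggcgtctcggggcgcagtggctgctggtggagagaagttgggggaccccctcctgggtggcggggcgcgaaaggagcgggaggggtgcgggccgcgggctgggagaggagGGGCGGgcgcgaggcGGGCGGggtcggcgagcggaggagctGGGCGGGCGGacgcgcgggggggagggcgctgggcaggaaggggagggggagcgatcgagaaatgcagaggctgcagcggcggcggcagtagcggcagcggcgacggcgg
The Pip5k1c window held 5 GC boxes and the Basp1 window held 4, counting overlapping matches on both strands. At least 1 GC box was present in 35.7% of 32851 windows of the same length, and 4 or more in 5.49%. The Pip5k1c window also held 3 CCAAT boxes (CCAAT, both strands, overlapping matches counted), some of which share bases. The Basp1 window held 0, where 37.4% of windows held at least 1. G and C made up 64.7% of the Pip5k1c window and 78.0% of the Basp1 window, with a median of 52.7% over all windows. The windows compared were not matched for G and C content, so no excess of boxes is read from these shares. A match of letters is a description and not a binding site.

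Pip5k1c, the gene of the PIP2-making kinase, had 76.3, 85.7 and 27.7 CPM in VLX-1005 replicates 1 to 3, against 15.3, 18.8, 13.9 and 13.5 CPM in vehicle replicates 1 to 4. These and later CPM levels include the TMM scaling factors of edgeR. VLX-1005 replicates 1 and 2 were far above vehicle, and replicate 3 was 1.47 times the highest vehicle library. The means were 63.2 ± 31.1 CPM with VLX-1005 (SD, n = 3) and 15.4 ± 2.39 CPM with vehicle (SD, n = 4), a log2 fold change of 2.02 ± 0.36 (SE of the edgeR fit).

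Marcks had the fewest counts of the 4 rows. It had 30, 59 and 15 counts in VLX-1005 replicates 1 to 3, against 7, 9, 3 and 4 counts in vehicle replicates 1 to 4. As levels these were 20.8, 57.4 and 11.9 CPM with VLX-1005, against 5.94, 7.05, 2.78 and 3.19 CPM with vehicle. The groups did not overlap, and VLX-1005 replicate 2 alone held more than the other libraries of its group together. The means were 30.0 ± 24.1 CPM with VLX-1005 and 4.74 ± 2.08 CPM with vehicle, a log2 fold change of 2.60 ± 0.56. In vehicle the fold rests on 23 counts over the 4 libraries, some of them close to the detection limit of 3 counts.

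Basp1 had 178, 370 and 124 CPM in VLX-1005 replicates 1 to 3, against 36.5, 61.1, 25.99 and 57.4 CPM in vehicle replicates 1 to 4. Again replicate 2 was the highest VLX-1005 library and replicate 3 the lowest, and the lowest was 2.03 times the highest vehicle library. The means were 224 ± 129 CPM with VLX-1005 and 45.2 ± 16.8 CPM with vehicle, a log2 fold change of 2.29 ± 0.41. Basp1 had the most counts of these 3 rows, with 793 over the VLX-1005 libraries and 221 over the vehicle libraries.

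Gm15265 went the other way and varied little. It had 297, 281 and 319 CPM in VLX-1005 replicates 1 to 3, against 423, 423, 391.7 and 440 CPM in vehicle replicates 1 to 4. The means were 299 ± 19.1 CPM with VLX-1005 and 420 ± 20.3 CPM with vehicle, a log2 fold change of −0.49 ± 0.11. The highest VLX-1005 library was at 0.815 of the lowest vehicle library. None of the next lower rows by p passed the threshold. They were Grin1os, antisense to the glutamate receptor gene Grin1 (−0.55 ± 0.14), Mrnip, opposite the autophagy receptor gene Sqstm1 (−1.08 ± 0.29), and Prpf39, opposite Fkbp3 (−0.49 ± 0.13).

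**Figure D1:**
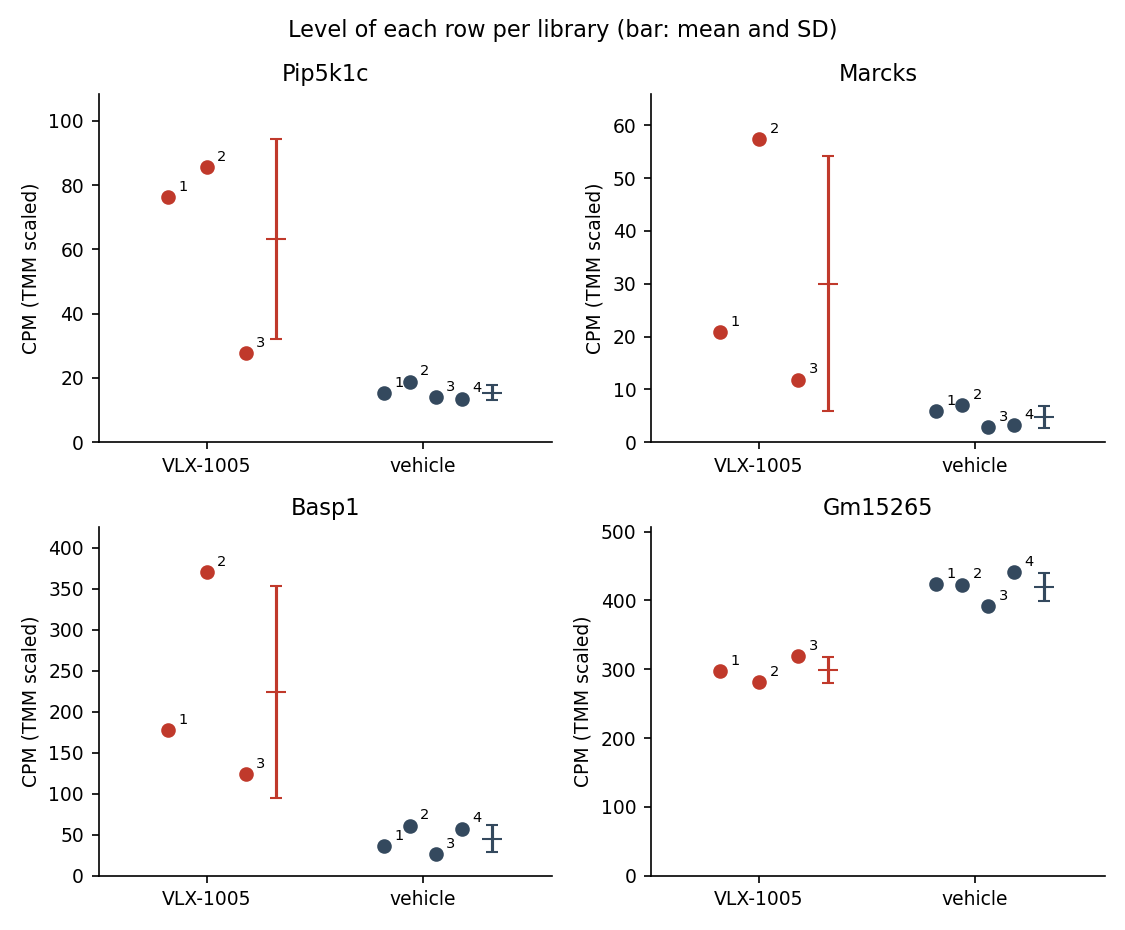
CPM (TMM scaled) of Pip5k1c, Marcks, Basp1 and Gm15265 in each library, with VLX-1005 on the left (n = 3) and vehicle on the right (n = 4); digits are replicate numbers and bars give mean and SD. Pip5k1c ran from 27.7 to 85.7 CPM with VLX-1005 and from 13.5 to 18.8 CPM with vehicle, and Gm15265 from 281 to 319 CPM with VLX-1005 and from 391.7 to 440 CPM with vehicle.

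Over all 4218 tested genes, 2.35% were called higher and 0.0237% lower at an edgeR adjusted p below 0.05. The groups did not overlap, in the higher direction, for 9.48% of tested genes and, in the lower direction, for 8.16%. The number of lower rows depended on the setting. It was 10 beside 187 higher with DESeq2, 13 beside 250 with no filter on low counts, 5 beside 159 with a filter at 1 CPM in 3 libraries and 5 beside 198 without VLX-1005 replicate 3. It was 0 with library totals only, with the ribosomal RNA or Casp9 covariate, and without VLX-1005 replicate 2 or any single vehicle library. It was also 0 with the replicate number as a block and among genes with no exon on the other strand, which leave out Gm15265. Since the contrast chose the 4 rows, nothing is read from their own calls.

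The 4 rows differed in how their spread compared with counting error. For Gm15265 the coefficient of variation between libraries was 6.39% with VLX-1005 and 4.84% with vehicle, where counting alone gives 5.17% and 4.46%. For Pip5k1c it was 49.3% with VLX-1005 and 15.6% with vehicle, where counting alone gives 11.3% and 23.2%. For Basp1 it was 57.8% with VLX-1005 and 37.1% with vehicle, against 6.15% and 13.5% from counting. For Marcks it was 80.4% with VLX-1005 and 43.9% with vehicle, against 16.98% and 41.7% from counting. The 3 higher rows thus spread far beyond counting error among the VLX-1005 libraries, and among the vehicle libraries Basp1 did so too. Per kilobase of exon, Gm15265 had the highest mean level, at 307 CPM with VLX-1005 and 431 CPM with vehicle. Basp1 followed at 111 and 22.5 CPM per kilobase, then Pip5k1c at 11.03 and 2.68, and Marcks at 7.42 and 1.17, each with VLX-1005 given before vehicle.

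The 3 higher rows shared the order of the VLX-1005 libraries, with replicate 2 highest, then replicate 1, then replicate 3. They did not share an order among the vehicle libraries, apart from the top place of vehicle replicate 2 in each. The VLX-1005 order was not particular to these rows. The kinase rows Pi4kb, Pi4ka and Pip5k1b had it although their groups overlapped, and others such as Ins2 did not have it. After each row was centred on its own mean of log2 CPM, the root mean square difference over the 7 libraries was 0.39 between Marcks and Basp1, 0.42 between Pip5k1c and Marcks, and 0.47 between Pip5k1c and Basp1. The centring ran over all 7 libraries, so these differences include the gap between groups on which the rows were picked. They do not show covariation apart from that gap. With 7 libraries in 2 separated groups no correlation was taken. The ratio of Marcks to Basp1 was 0.117, 0.155 and 0.0955 in VLX-1005 replicates 1 to 3, against 0.163, 0.115, 0.107 and 0.0556 in vehicle replicates 1 to 4, so these ratios overlapped between groups. The ratio of Pip5k1c to Basp1 overlapped as well, at 0.430, 0.232 and 0.223 with VLX-1005, against 0.419, 0.308, 0.536 and 0.236 with vehicle.

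The share of ribosomal RNA ran in the same order among the VLX-1005 libraries. Ribosomal RNA genes took 2.55%, 3.14% and 2.15% of the counts in VLX-1005 replicates 1 to 3, against 2.04%, 1.69%, 2.11% and 2.05% in vehicle replicates 1 to 4. VLX-1005 replicate 2 thus had both the highest ribosomal RNA share and the highest Pip5k1c, Marcks and Basp1, and it had the lowest total count. Vehicle replicate 2 had the lowest ribosomal RNA share and the highest vehicle levels of these 3 rows. Among vehicle libraries the spread of Pip5k1c and Marcks was near or below counting error, so their order there is not read. The ribosomal RNA share did not overlap between groups, so a covariate cannot tell it apart from treatment in 7 libraries. The part of ribosomal RNA content in the difference between groups was not tested beyond that covariate. With the ribosomal RNA share as a covariate the log2 fold changes were 1.23 ± 0.48 for Pip5k1c, 1.12 ± 0.66 for Marcks, 1.41 ± 0.52 for Basp1 and −0.38 ± 0.16 for Gm15265. Without VLX-1005 replicate 2 they were 1.76, 1.76, 1.73 and −0.44 in the same order.

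**Figure D2:**
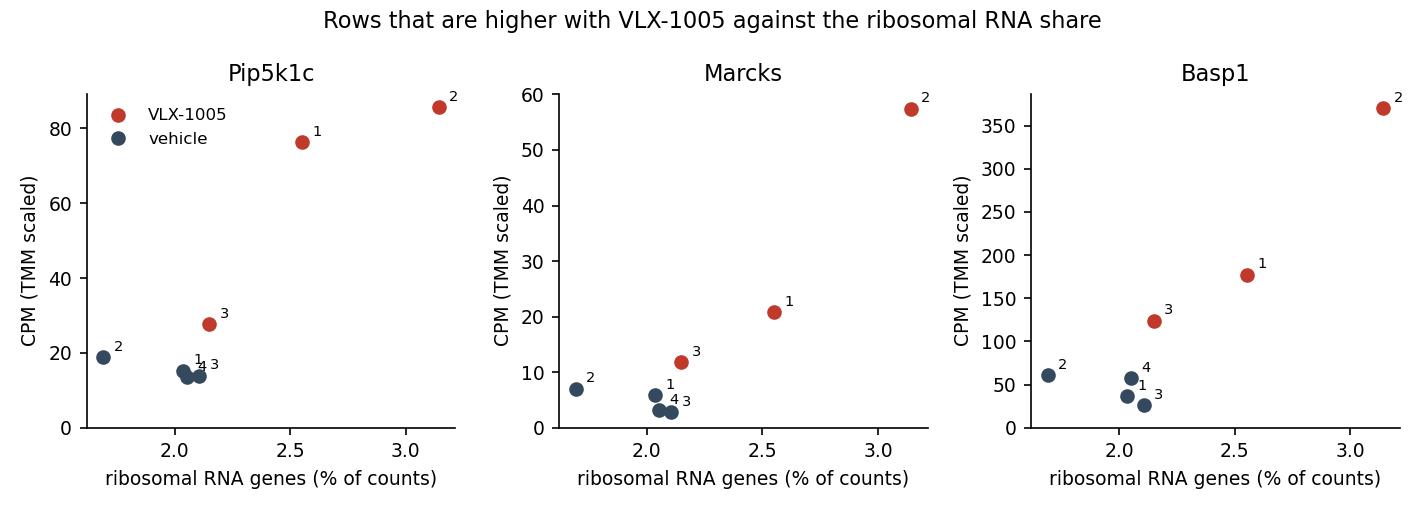
CPM (TMM scaled) of Pip5k1c, Marcks and Basp1 against the percentage of counts on ribosomal RNA genes, 1 point per library, with VLX-1005 in red (n = 3), vehicle in dark blue (n = 4) and replicate numbers beside the points. VLX-1005 replicate 2, at 3.14% ribosomal RNA, is the highest library in each panel, while the vehicle libraries lie between 1.69% and 2.11%.

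The summed levels of marker lists for other cells overlapped between groups, except for B cell markers. Neural and Schwann cell markers, which matter because MARCKS and BASP1 are abundant in neurons, summed to 1.95 to 8.69 CPM with VLX-1005 and 3.71 to 6.37 CPM with vehicle, with counts for 7 of 9 genes and Cdh19 among those at 0. Mesenchymal markers summed to 7.79 to 13.4 CPM with VLX-1005 and 3.19 to 8.62 CPM with vehicle, with 5 of 9 detected and Dcn, Pdgfra, Acta2 and Lum at 0. Acinar markers summed to 33.3 to 129 CPM with VLX-1005 and 40.6 to 120 CPM with vehicle, with counts for 11 of 12 genes and Prss1 at 0. Macrophage markers summed to 276 to 314 CPM with VLX-1005 and 251 to 321 CPM with vehicle, with 7 of 9 detected and Adgre1 and Mrc1 at 0. Duct markers, all 8 detected, summed to 37.4 to 45.1 CPM with VLX-1005 and 25.5 to 39.0 CPM with vehicle. B cell markers summed to 2.77 to 5.53 CPM with VLX-1005 and 0 to 1.70 CPM with vehicle, with 2 of 7 detected and Pax5, Blk, Ms4a1 and Cd79b among those at 0. These B cell sums rest on few counts, close to the level that a count of 0 allows. T cell markers summed to 0.79 to 1.39 CPM with VLX-1005 and 0.80 to 4.24 CPM with vehicle, with 6 of 9 detected. Endocrine markers, all 12 detected, summed to 1004 to 1770 CPM with VLX-1005 and 1192 to 1454 CPM with vehicle. None of the tested marker genes was called. No neural, mesenchymal, T cell or B cell marker row passed the filter, and 1 macrophage row did. With the strand of counting not settled, these sums need not follow cell content. The part of other cells in the results was not tested.

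The rows next to the 4 genes were tested, since their values did not choose them. A total of 25 rows lay within 50 kb of one of the 4, 23 had counts, and 8 passed the filter. None of the 8 was called (smallest edgeR adjusted p = 0.267), against 2.37% of all tested genes called in either direction. At an unadjusted p below 0.05 edgeR gave 1 of the 8, A730011C13Rik, where it gave 18% of all tested genes, and DESeq2 called none.

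Pi4kb is the gene that faces Gm15265. Its own row had 83.2, 106 and 70.3 CPM in VLX-1005 replicates 1 to 3, against 74.7, 73.6, 71.5 and 84.4 CPM in vehicle replicates 1 to 4. The groups overlapped and the test did not pass (log2 fold change 0.18 ± 0.19, edgeR adjusted p = 0.654), and its sign turned with the ribosomal RNA covariate (−0.17 ± 0.26). A second antisense row, A730011C13Rik (chr3:94994410-94997350, opposite 234 bases of Pi4kb exon), had 159, 189 and 166 CPM in VLX-1005 replicates 1 to 3, against 192, 206, 252 and 209 CPM in vehicle replicates 1 to 4. All 3 VLX-1005 libraries lay below all 4 vehicle libraries, yet the difference did not pass (log2 fold change −0.33 ± 0.15, edgeR adjusted p = 0.267). If reads were counted on the opposite strand, both antisense rows could hold reads of Pi4kb, and the Pi4kb row would hold antisense reads. Zfp687, a zinc finger protein gene whose end overlaps that of Pi4kb by 254 bases on the minus strand, averaged 33.7 ± 4.59 CPM with VLX-1005 and 25.2 ± 5.46 CPM with vehicle (0.42 ± 0.27, edgeR adjusted p = 0.437). Mir7013, a microRNA gene within the locus, had 3 counts with VLX-1005 and 2 with vehicle and could not be tested. B230398E01Rik, antisense to Rfx5 and next to the locus, averaged 413 ± 19.8 CPM with VLX-1005 and 466 ± 30.2 CPM with vehicle (−0.17 ± 0.11, edgeR adjusted p = 0.440).

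**Figure D3:**
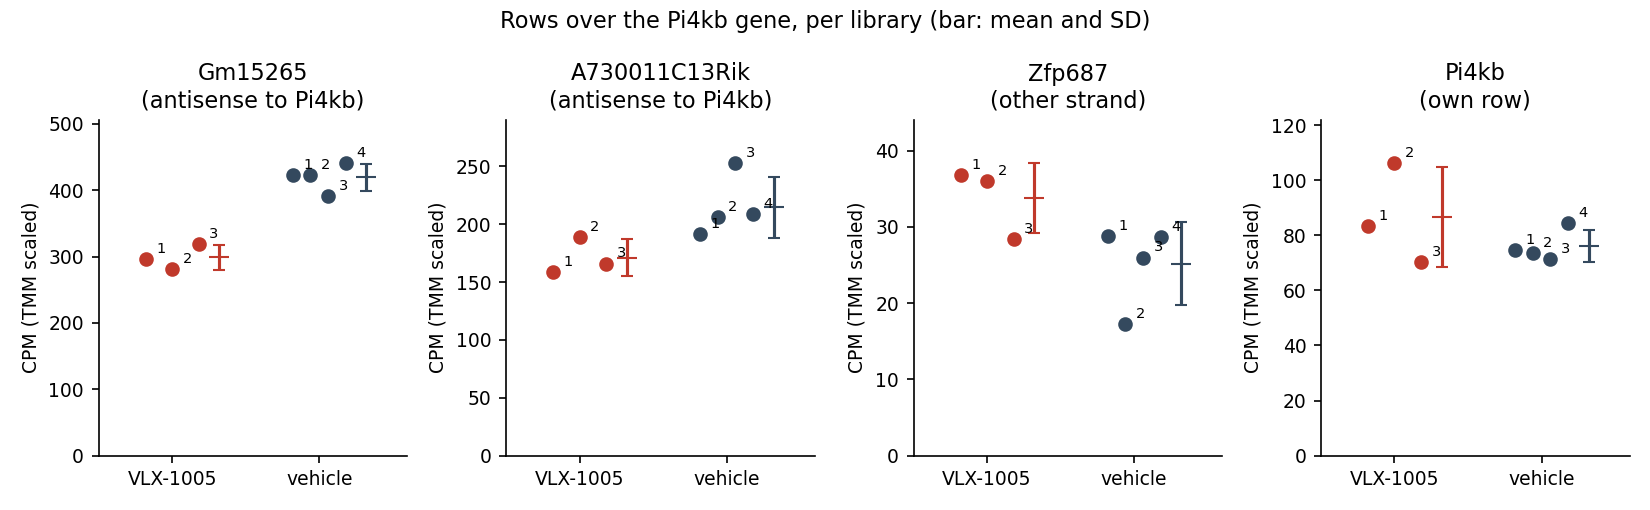
CPM (TMM scaled) per library of the antisense rows Gm15265 and A730011C13Rik and of the Zfp687 and Pi4kb rows as counted, with VLX-1005 on the left (n = 3), vehicle on the right (n = 4), and bars for mean and SD. Both antisense rows are lower in every VLX-1005 library than in any vehicle library, while the Pi4kb row overlaps at 70.3 to 106 CPM with VLX-1005 and 71.5 to 84.4 CPM with vehicle.

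Marcks and Basp1 each have a noncoding neighbour that starts just upstream on the plus strand. 5930403N24Rik begins 482 bases from Marcks and had 40.9, 60.3 and 59.3 CPM in VLX-1005 replicates 1 to 3, against 56.8, 45.4, 47.3 and 55.8 CPM in vehicle replicates 1 to 4. It overlapped between groups (0.05 ± 0.22, edgeR adjusted p = 0.926), and VLX-1005 replicate 2 did not stand apart from replicate 3 there. Gm5468 begins 428 bases from Basp1 and had 1 count in all 7 libraries. Pip5k1c contains the antisense gene Gm16315 (chr10:81301701-81302917), which shares no exon bases with it and had 2 counts with VLX-1005 and 1 with vehicle. The tested neighbours of Pip5k1c were Matk, a tyrosine kinase gene (0.21 ± 0.28), Apba3, an adaptor gene (0.30 ± 0.30), and 4930404N11Rik, opposite Mfsd12 (0.28 ± 0.15). Their edgeR adjusted p lay between 0.346 and 0.728. Cactin, which lies 1130 bases beyond the end of Pip5k1c on the same strand, had 12 counts with VLX-1005 and 10 with vehicle.

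Several close relatives of the 4 genes had few counts. With the strand of counting not settled, a low row need not mean a low transcript level. Pip5k1a, another type I PIP kinase gene, had 1 count over all 7 libraries, and Pip5k1b averaged 10.6 ± 1.99 CPM with VLX-1005 and 8.42 ± 2.65 CPM with vehicle (0.31 ± 0.41, edgeR adjusted p = 0.742). Pi4ka, the plasma membrane PI 4-kinase gene, averaged 110 ± 38.0 CPM with VLX-1005 and 105 ± 15.7 CPM with vehicle (0.06 ± 0.23, edgeR adjusted p = 0.910). Marcksl1, the closest relative of Marcks, had 15 counts with VLX-1005 and 5 with vehicle, too few to pass the filter. Gap43, which is grouped with MARCKS and BASP1 for its PIP2 binding, had 2 counts with VLX-1005 and 0 with vehicle, at or under the level that a count of 0 allows. Of the 20 other rows for MARCKS-type proteins and their regulators, 0 passed the filter. Their summed level was 31.9 to 45.7 CPM with VLX-1005 and 22.3 to 32.9 CPM with vehicle.

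The rest of the pathway was read through 6 lists with 154 rows besides the members. As the strand of counting was not settled, a row that was not called need not mean an unchanged transcript. Of these rows, 29 passed the filter and 0 were called in edgeR, with 15 positive and 14 negative values and a median log2 fold change of 0.06. The median over all 4218 tested genes was −0.01. At an unadjusted p below 0.05 edgeR gave 3 of the 29, where it gave 18% of all tested genes, and DESeq2 called 1, Gga3. Gga3, a Golgi adaptor gene whose product binds PI4P, had 26.3, 53.5 and 14.2 CPM in VLX-1005 replicates 1 to 3, against 5.09, 13.3, 8.35 and 5.58 CPM in vehicle replicates 1 to 4. The groups did not overlap, and the log2 fold change was 1.92 ± 0.48 (edgeR adjusted p = 0.0588). Pitpna, which encodes a phosphatidylinositol transfer protein, had 31.9, 64.2 and 12.6 CPM with VLX-1005, against 23.8, 7.83, 6.50 and 16.7 CPM with vehicle, and overlapped (1.37 ± 0.56, edgeR adjusted p = 0.226). In Gga3 and Pitpna, VLX-1005 replicate 2 was highest and replicate 3 lowest, as in Pip5k1c, Marcks and Basp1. Pip4p1, a PIP2 phosphatase gene opposite the DNA repair gene Apex1, averaged 1006 ± 116 CPM with VLX-1005 and 1293 ± 206 CPM with vehicle (−0.36 ± 0.14, edgeR adjusted p = 0.196). Its 6 tested fellow phosphatase rows, among them the 5-phosphatase gene Inpp5e (−0.19 ± 0.13), did not pass either. Neither did any of the 6 tested rows of actin, adhesion and vesicle proteins that bind PIP2, including Tln1, the gene of the integrin activator talin (−0.18 ± 0.13), and the profilin gene Pfn1 (0.88 ± 0.58).

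Since most counts lay opposite other genes, the rows opposite the same lists were read as well. There were 62 such rows besides Gm15265, of which 46 passed the filter. edgeR called 2 higher and 0 lower (4.35% of the 46, against 2.37% of all tested genes). The lists were chosen with earlier results of these data known, so no excess is read from this share. Of the 46, 19 had positive and 27 negative values, with a median log2 fold change of −0.05. The groups did not overlap in 5 of the 46 in the higher direction and 5 in the lower direction, where 9.48% and 8.16% of all tested genes did so.

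1810049J17Rik (chr15:12321438-12321899) lies opposite Golph3, whose product binds PI4P at the Golgi, over 450 of its 462 bases. It had 861, 1129 and 432 CPM in VLX-1005 replicates 1 to 3, against 262, 305, 270 and 263 CPM in vehicle replicates 1 to 4. It rose by 1.55 ± 0.27 on the log2 scale (edgeR adjusted p = 0.0236). Gm10602 (chr7:101836503-101842771) lies opposite Inppl1, the gene of a PIP3 5-phosphatase, and had 236, 397 and 202 CPM with VLX-1005, against 138, 161, 150 and 139 CPM with vehicle. It rose by 0.92 ± 0.21 (edgeR adjusted p = 0.0400). Both showed the library order of Pip5k1c, Marcks and Basp1. Neither was called with the ribosomal RNA share as a covariate (0.82 and 0.37) or without VLX-1005 replicate 2 (1.24 and 0.58). Both also lost the call when any single vehicle library was left out, with values of 1.53 to 1.62 for 1810049J17Rik and 0.89 to 0.97 for Gm10602, and 1810049J17Rik lost it without VLX-1005 replicate 1 (1.49).

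Other rows opposite the pathway did not pass. Fkbp14, opposite Plekha8, the gene of a PI4P-binding lipid transfer protein, averaged 29.7 ± 13.9 CPM with VLX-1005 and 13.4 ± 4.52 CPM with vehicle (1.14 ± 0.38, edgeR adjusted p = 0.155). Gm43118, opposite the transfer protein gene Pitpnb, averaged 981 ± 129 CPM with VLX-1005 and 1261 ± 80.1 CPM with vehicle, with no overlap between groups (−0.36 ± 0.12, edgeR adjusted p = 0.147). Itpr3os, antisense to the IP3 receptor gene Itpr3, averaged 163 ± 30.1 CPM with VLX-1005 and 119 ± 19.4 CPM with vehicle (0.45 ± 0.18, edgeR adjusted p = 0.212). Zhx3, opposite the phospholipase C gene Plcg1, averaged 96.2 ± 21.3 CPM with VLX-1005 and 69.4 ± 7.64 CPM with vehicle (0.46 ± 0.20, edgeR adjusted p = 0.242). Among the kinases, F420014N23Rik, opposite Pip4k2c, had a log2 fold change of −0.20 ± 0.10, Tmem191c, opposite Pi4ka, one of −0.15 ± 0.13, and Gm44777, opposite Pik3c2a, one of −0.12 ± 0.14.

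**Figure D4:**
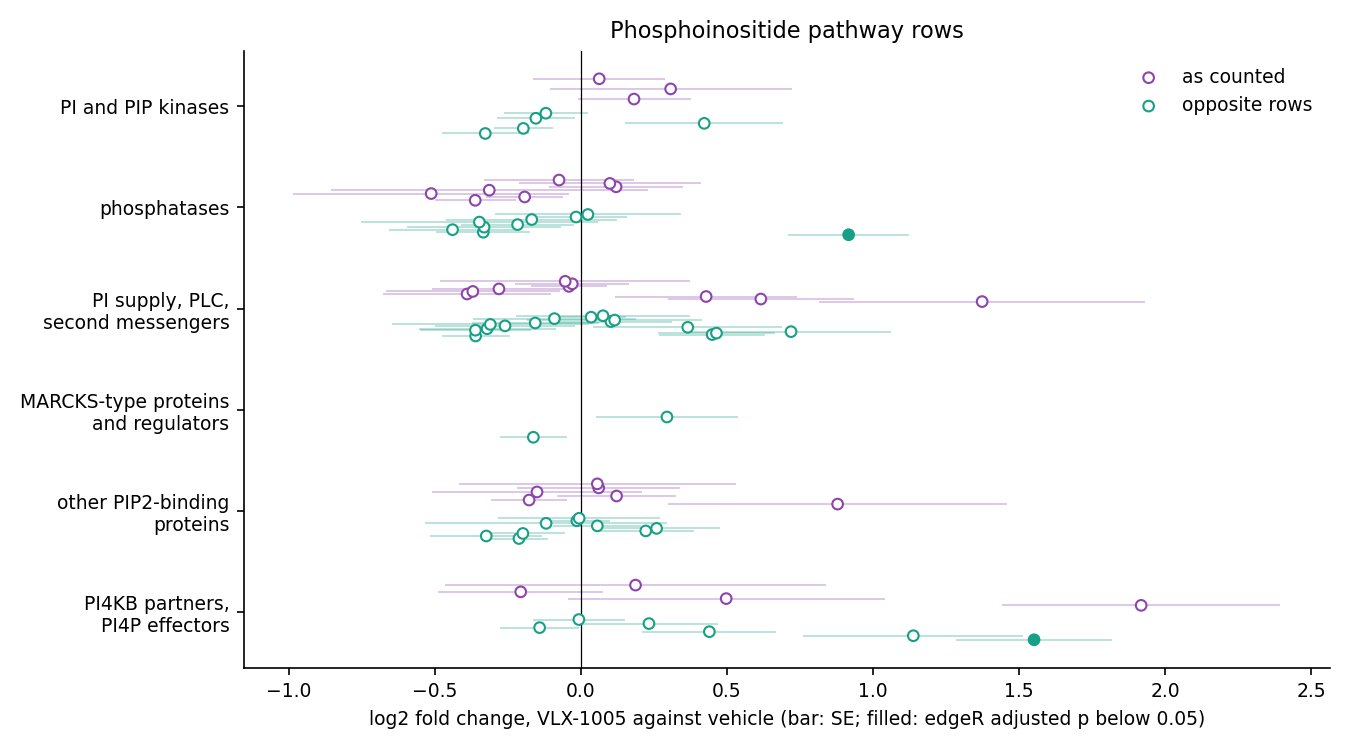
Log2 fold change of VLX-1005 against vehicle with its SE for each tested row of 6 phosphoinositide lists, as counted (purple, 29 rows) and for rows opposite list genes (green, 46 rows), with filled points for an edgeR adjusted p below 0.05. The filled points are Gm10602 (0.92) and 1810049J17Rik (1.55), and the medians are 0.06 as counted and −0.05 for opposite rows.

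Centred log2 CPM keeps the gap between groups on which the 4 were picked, so rows with a like gap come out near. The rows most like each of the 4 were found by the smallest root mean square difference of centred log2 CPM over 7 libraries, as a description. For Pip5k1c these were Yy1, a zinc finger transcription factor gene (0.17), the transporter gene Slc16a12 (0.19) and D930007J09Rik, opposite Wrnip1 (0.21), where the median over tested rows was 1.06. Yy1 had 52.0, 82.7 and 28.5 CPM in VLX-1005 replicates 1 to 3, against 14.4, 18.02, 12.996 and 11.9 CPM in vehicle replicates 1 to 4. For Marcks they were Gm11973, opposite Purb (0.27), Mgme1, a mitochondrial exonuclease gene opposite Snx5 (0.28), and Gm26571, opposite Riox1 (0.31). For Basp1 they were Mgme1 (0.26), Gm29629, opposite Cdk18 (0.27), and Gm44335, opposite the histone gene H2afx (0.29). Marcks and Basp1 thus shared Mgme1 as a near row, and it had 83.9, 181 and 52.2 CPM with VLX-1005, against 22.1, 21.9, 15.8 and 23.1 CPM with vehicle. For Gm15265 the nearest rows were Cnppd1 (0.05), Gm13562, opposite Snapc4 (0.05), and Gm13814 (0.08), with a median of 0.40 over tested rows. Cnppd1 had 27.7, 26.3 and 32.4 CPM with VLX-1005, against 39.9, 43.9, 38.1 and 43.0 CPM with vehicle.

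The log2 fold changes of the 4 rows kept their sign under every other setting tried. The rows were picked on this contrast and their groups did not overlap. A kept sign was thus largely set in advance and is no test of the difference. They ran from 1.23 to 2.37 for Pip5k1c, 1.12 to 2.96 for Marcks and 1.41 to 2.56 for Basp1, each over 17 alternatives, and from −0.55 to −0.38 for Gm15265 over 16. The lowest value of each higher row and the smallest change of Gm15265 came with the ribosomal RNA share as a covariate.

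**Figure D5:**
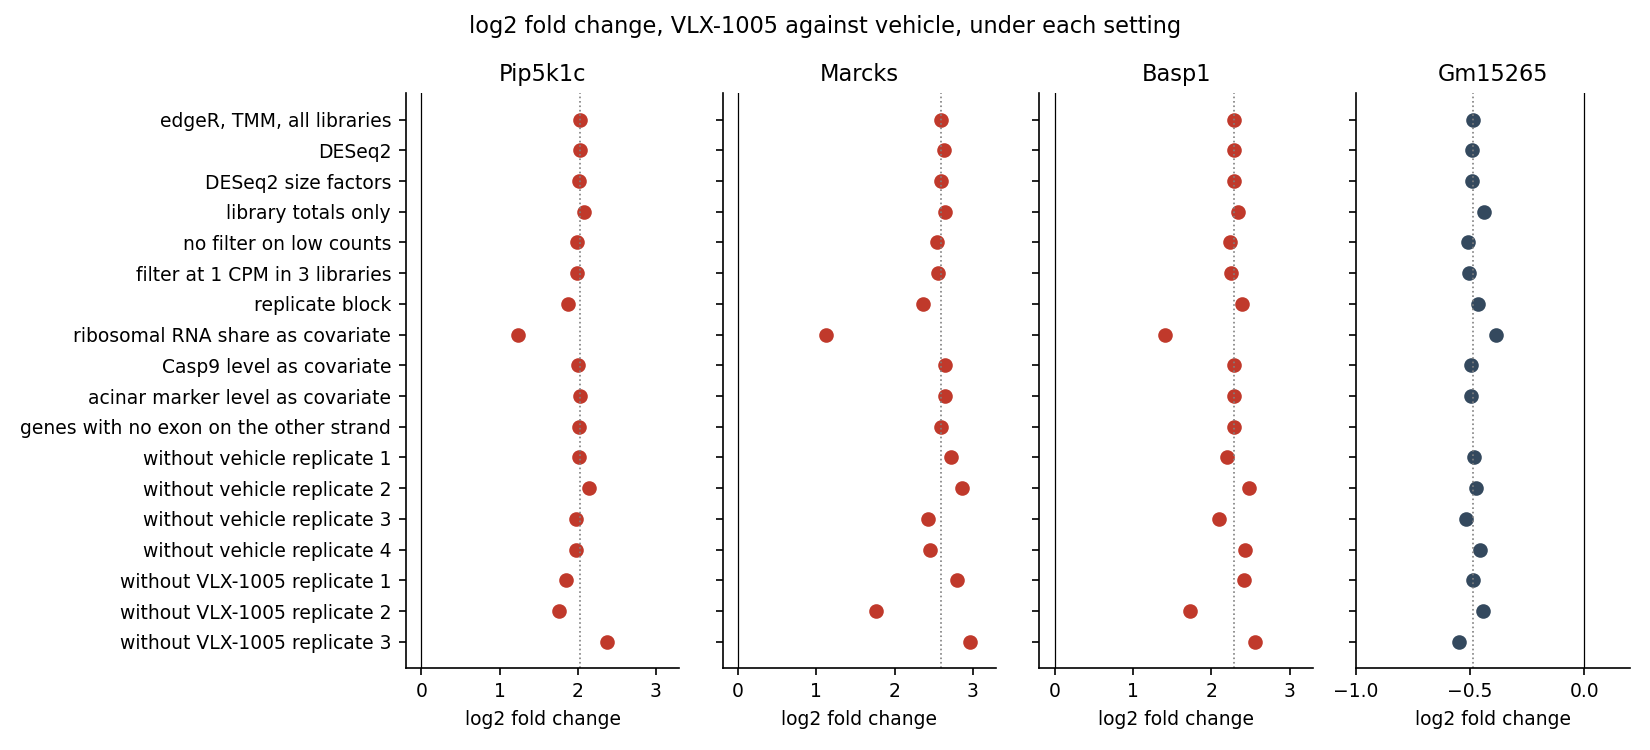
Log2 fold change of VLX-1005 against vehicle for the 4 rows under the main setting (dotted line) and each alternative; the vertical line is at 0. Values run from 1.12 to 2.96 for Marcks and from −0.55 to −0.38 for Gm15265, and the ribosomal RNA covariate gives the value nearest 0 in each panel.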

How the data were processed

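The deposited table held unnormalized whole-number counts for each gene in each of the 7 libraries of polyadenylated RNA. Per the submitters' processing notes and the study's methods, reads were trimmed (Trimmomatic), checked (FastQC), aligned to mm10 (HISAT2) and counted (HTSeq). For strand setting, annotation and versions the entry is: not given in the sources used here. Gene IDs were matched to GENCODE M21 on the same build, which gave 48058 genes a position and left 382 without one. bedtools 2.31.1 listed exon overlaps between strands. The 4 IDs of the rule matched 1 row each.

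Groups were compared with the two-sided quasi-likelihood test of edgeR 4.0.16 (R 4.3.3; TMM factors, filterByExpr, robust dispersion, no covariate) over 4218 genes. Adjusted p is Benjamini-Hochberg over these genes, called at 0.05. The SE is the log2 fold change divided by the root of its F statistic. Log2 CPM used a prior count of 2. The script was tested on simulated data.

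The members and lists were chosen with earlier results of these data known. Named genes were the members, Pi4kb, rows within 50 kb, up to 4 rows of each list by smallest p, the 3 nearest rows of each member and the 3 next lower rows; a selection is printed. Rows of relatives with few counts (Pip5k1a, Marcksl1, Gap43), Ins2, Actb and Alox15 were added after their values were seen. Alternatives were DESeq2 1.42.0, other scaling, other filters, the replicate number as a block, 3 covariates, rows with no exon on the other strand, and omission of each library. A few listed genes are not reported here.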

Additional observations from a re-analysis of the deposited data

How the results depend on the processing

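The 100 genes called over all genes were 197 with DESeq2, 263 with no filter on low counts and 164 with a filter at 1 CPM in 3 libraries, and 54 with the level of Casp9, 0 with the ribosomal RNA share as a covariate (260 at an unadjusted p below 0.05 in edgeR), and 10 among genes with no exon on the other strand. With 1 library left out the count ran from 14 to 203. The calls among rows opposite the phosphoinositide lists were 2, and they were 0 with the ribosomal RNA share or the Casp9 level as a covariate, 1 with the acinar marker level, and 0 to 2 with 1 library left out. The count of 0 called list genes as counted was 1 with DESeq2, with the 1 CPM filter and with the acinar marker level (Gga3 in each), 2 with no filter (Gga3 and Pitpna), and 0 to 1 with 1 library left out. No neighbouring row was called under any setting. The ribosomal RNA covariate moved the log2 fold change to 1.23 for Pip5k1c, 1.12 for Marcks, 1.41 for Basp1 and −0.38 for Gm15265. It turned that of Pi4kb to −0.17. The ribosomal RNA share did not overlap between groups and cannot be told apart from treatment, and the cause was not tested. With 1 library left out, the ranges were 1.76 to 2.37 (Pip5k1c), 1.76 to 2.96 (Marcks), 1.73 to 2.56 (Basp1) and −0.55 to −0.44 (Gm15265). With the replicate number as a block, 19 genes were called over all genes and 0 among the opposite rows; same-numbered libraries deviated together with correlations of −0.03, −0.02 and 0.09, so the numbers were not taken to pair them. Rows opposite the lists could not be tested among genes with no exon on the other strand. Marcks, at 3 to 9 counts in each vehicle library, is the row that depth limits most.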
